A study of Mus musculus with 10 samples.

Results

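The metallothioneins Mt1 and Mt2 and the genes of zinc and iron handling Mtf1, Slc30a1, Slc39a10, Slc11a2, Tfrc, Fth1, Ftl1 and Ireb2 were followed in mouse embryonic stem cells that carry a mutated ANKRD11. Each was found by its gene name, and the 10 genes are 10 of the 55401 genes in the expression table. They were listed with their difference between mutant and wild-type cells already known, so that difference is given as a description, with no p-value. Where calls of these genes are listed below, nothing is read from them.

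Poly(A) RNA of E14 cells, an embryonic stem cell line (mESC) whose labels give the tissue as Embryo, was sequenced in 10 libraries. The wild-type libraries, labelled as untreated, number 4 and came in 2 numbered sets of 2. The ANKRD11 Y347A libraries number 6 and came in 3 numbered sets of 2, from cells edited with CRISPR/Cas9, and the series' design text speaks of 1 mutant line against 1 wild-type line. ANKRD11 is an ankyrin-repeat protein of the nucleus, and the series title speaks of its binding to cohesin. What a set is (a clone, a culture or a preparation) is not given in the labels, so p-values reflect how far these particular sets and libraries spread, which may be technical. Levels are in TPM, transcript abundances divided by transcript length and scaled to the same total in every library. Depth is therefore unknown. Group levels are given as the mean ± SD of set means, with n = 2 for the wild type and n = 3 for the mutant. Differences are log2 fold changes ± SE, positive where the mutant was higher, computed on log2(TPM + 1), so the change of a gene of few TPM comes out too small.

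Metallothioneins are small cysteine-rich proteins that bind zinc and copper in the cytosol, and their genes are switched on by the metal-sensing transcription factor MTF1, which also drives the zinc exporter ZnT1 (Slc30a1). Zinc enters cells through ZIP transporters such as ZIP10 (Slc39a10). Iron bound to transferrin enters through the transferrin receptor (Tfrc), crosses the endosomal membrane through DMT1 (Slc11a2) and is stored in ferritin, a shell of heavy (Fth1) and light (Ftl1) chains. The iron regulatory proteins IRP1 (Aco1) and IRP2 (Ireb2) bind hairpins, iron-responsive elements, in these mRNAs when iron is scarce. Bound at the start of an mRNA they block translation of ferritin, and bound at the end they protect the Tfrc mRNA from decay.

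The control sequences of these genes are shown because they are what the metal sensors are known to read. MTF1 binds metal response elements, whose core was searched for as TGCACNC or TGCGCNC on both strands, in windows of 250 bases before to 50 after a RefSeq gene start (GRCm38.p6). A window was found for 9 of the 10 genes (Slc11a2 had none). The Mt1 window held 3 matches, starting at -23, 3 and 21 from the gene start, and the Mt2 window held 4, at -223, -128, -50 and 5. The Slc30a1 window held 2 (-43 and 31), and 1 Tfrc window held 2 that overlap each other (-53 and -50). The windows of Mtf1, Slc39a10, Fth1, Ftl1 and Ireb2 held 0. The Mtf1 window and both Slc39a10 windows did not cover the start of the GENCODE gene span given below, so 0 does not describe that start. Of 32851 promoter windows of the same length, 25.7% held at least 1 match, 7.11% at least 2, 1.97% at least 3 and 0.517% at least 4. Below are the bases upstream of the start and the 30 bases after it for both metallothioneins, and 100 bases before the start of Slc30a1, all on the plus strand and 5′ to 3′, with the matches in capitals.
Mt1, upstream, chr8:94178839-94179088: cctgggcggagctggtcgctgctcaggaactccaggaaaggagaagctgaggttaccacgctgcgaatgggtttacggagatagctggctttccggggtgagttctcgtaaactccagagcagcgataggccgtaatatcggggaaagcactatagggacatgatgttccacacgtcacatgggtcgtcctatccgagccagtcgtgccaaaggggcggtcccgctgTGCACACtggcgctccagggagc
Mt1, from the start, chr8:94179089-94179118: tcTGCACTCcgcccgaaaagTGCGCTCggc
Mt2, upstream, chr8:94172368-94172617: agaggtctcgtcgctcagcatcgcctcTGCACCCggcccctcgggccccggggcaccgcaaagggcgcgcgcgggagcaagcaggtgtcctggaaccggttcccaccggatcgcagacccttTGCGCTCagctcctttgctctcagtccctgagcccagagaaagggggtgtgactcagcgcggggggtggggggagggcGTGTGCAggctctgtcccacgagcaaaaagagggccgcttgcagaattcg
Mt2, from the start, chr8:94172618-94172647: ggtcGTGCGCAggcccaggggcgtgtgctg
Slc30a1, upstream, chr1:191906681-191906780: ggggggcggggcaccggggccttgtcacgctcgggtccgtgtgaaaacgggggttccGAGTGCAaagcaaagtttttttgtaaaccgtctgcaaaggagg
Counted from the RefSeq start, 2 of the 3 Mt1 matches lie after it and 3 of the 4 Mt2 matches before it. The GENCODE gene spans given below begin elsewhere, at 94179082 for Mt1 and 94172664 for Mt2. All 4 Mt2 matches lie before that Mt2 start, so before and after depend on the annotation. Bases further than 50 after the RefSeq start were not searched. The counts thus hold for these windows and not for the whole promoters, and which start the cells use was not tested. A match to the letters is a description and not a binding site.

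Iron-responsive elements were searched for over the whole annotated transcripts of protein-coding genes (GENCODE M21 on mm10), and matches were then placed by region. The pattern was a C, a stem of 5 bases, the loop CAGTGN, and 5 bases that pair with the stem (17 bases in all). The Tfrc mRNA held 4 in its 3′ untranslated region, and the Fth1 and Ftl1 mRNAs held 1 each in their 5′ untranslated regions. They are shown because they divide the iron genes into the class stabilised and the class blocked by the iron regulatory proteins. The loop is in capitals, and each is written on the strand of its gene.
Tfrc, chr16:32631225-32631241, plus strand: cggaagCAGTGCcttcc
Tfrc, chr16:32631604-32631620, plus strand: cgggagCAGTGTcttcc
Tfrc, chr16:32631669-32631685, plus strand: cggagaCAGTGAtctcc
Tfrc, chr16:32631716-32631732, plus strand: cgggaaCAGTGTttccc
Fth1, chr19:9982738-9982754, plus strand: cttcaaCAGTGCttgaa
Ftl1, chr7:45459785-45459801, minus strand: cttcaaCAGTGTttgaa
The Fth1 and Ftl1 elements have the same stem. Anywhere in a transcript, coding regions included, the pattern was found in 369 of 21951 protein-coding genes (1.68%). A match alone thus does not mark an iron-regulated mRNA. The pattern allows no bulge or mismatch in the stem, and the elements of Slc11a2, which are known to depart from this form, were not matched.

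Before the members' values, the cell identity was checked against marker genes. The 10 embryonic stem cell markers were all expressed, with a summed level of 10955 to 11672 TPM in the wild-type libraries and 9788 to 11647 TPM in the mutant libraries. Most of that sum was Dppa5a (6821 to 8610 TPM over all libraries), and single markers differed between genotypes in both directions. Nanog (507 to 575 TPM in wild-type and 312 to 355 TPM in mutant libraries), Zfp42 (345 to 372 and 218 to 309 TPM), Utf1 (51.0 to 57.9 and 31.1 to 48.5 TPM) and Pou5f1 (1200 to 1271 and 1026 to 1185 TPM) were lower in every mutant library. Esrrb (235 to 261 and 273 to 315 TPM), Klf4 (61.6 to 63.2 and 68.3 to 76.1 TPM) and Tdgf1 (404 to 444 and 492.5 to 542 TPM) were higher in every mutant library, and Sox2, Sall4 and Dppa5a overlapped. Of 10 fibroblast feeder markers 2 reached a mean of 1 TPM, Postn and Dcn were at 0 in every library, and their sum was 5.0 to 7.51 TPM in wild-type and 5.70 to 7.01 TPM in mutant libraries. The summed level of 9 primitive endoderm markers was higher in every mutant library (36.8 to 47.0 against 28.2 to 33.3 TPM), carried by Lama1 and Col4a1, while Sox17 and Gata6 stayed below 1 TPM in every library. Sums of 8 trophoblast markers were 16.6 to 24.5 TPM in wild-type and 21.96 to 32.3 TPM in mutant libraries. Most of that sum was Tfap2c (10.2 to 18.0 TPM in wild-type and 15.5 to 26.2 TPM in mutant libraries). Gata3 was lower in every mutant library (0.68 to 1.04 and 0 to 0.27 TPM), and the other markers, Tfap2c included, overlapped. The 6 markers of liver and yolk sac endoderm, tissues rich in metallothionein, summed to 0.880 to 2.23 and 1.07 to 2.16 TPM, with Alb at 0 in every library, and 6 red cell markers to 1.75 to 3.05 and 1.42 to 3.39 TPM. The part of the stem cell markers and of the endoderm and trophoblast sums in the results below was not tested.

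Mt1 and Mt2 were both about doubled in the mutant cells, and they were the members with the largest differences. Mt1 (ENSMUSG00000031765.8, mm10 chromosome 8, 94179082 to 94180327, plus strand) stood at 754, 723, 711 and 682 TPM in the wild-type libraries. In the mutant libraries it stood at 1893 and 2049 TPM in set 1, 1476 and 1484 TPM in set 2, and 1441 and 1354 TPM in set 3. Every mutant library lay above every wild-type library, and the pair of set 1 lay above the other mutant libraries. The mean level went from 717 ± 29.7 to 1616 ± 310 TPM, a ratio of 2.25 and a log2 fold change of 1.15 ± 0.14.

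Mt2 (ENSMUSG00000031762.7, chromosome 8, 94172664 to 94173568, plus strand), the close neighbour of Mt1, stood at 1571, 1497, 1560 and 1580 TPM in the wild-type libraries. In the mutant libraries it stood at 3793 and 3826 TPM in set 1, 2933 and 2872 TPM in set 2, and 2788 and 2787 TPM in set 3. The groups again did not overlap, and the order of the mutant sets was that of Mt1. The mean level went from 1552 ± 25.2 to 3166 ± 560 TPM, a ratio of 2.04 and a log2 fold change of 1.01 ± 0.13. Among the 12797 genes tested (mean TPM of 1 or more), 416 (3.25%) had a ratio of mean TPM of at least 2. By level, Mt2 ranked 113 in the wild-type and 52 in the mutant libraries, and Mt1 ranked 202 and 112. In bulk RNA, a change in the number of cells that express a gene and a change in the RNA per cell cannot be told apart.

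**Figure D1:**
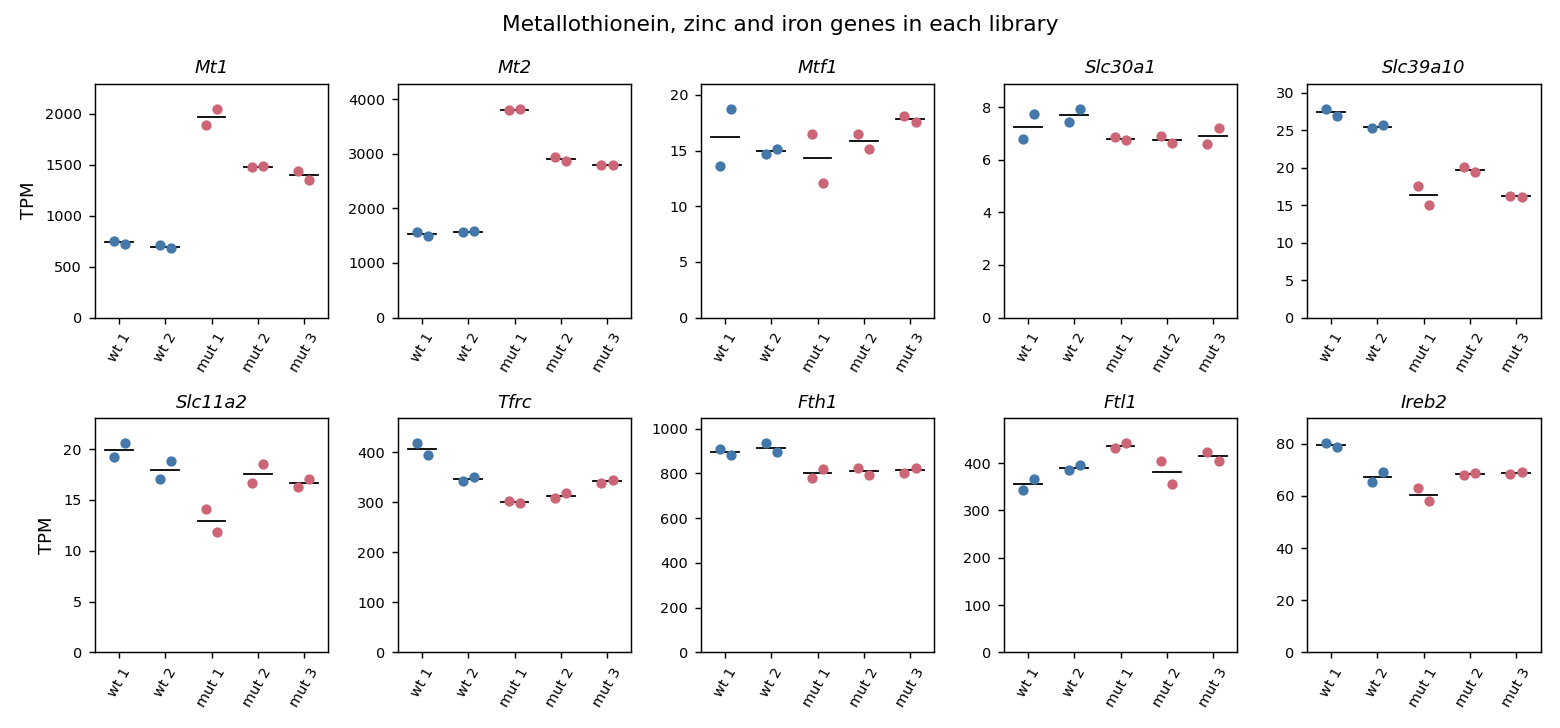
Level (TPM, 1 panel per gene, each with its own axis) of the 10 genes in each of the 10 libraries, grouped by set, wild type (wt) in blue and ANKRD11 Y347A (mut) in red; points are libraries and lines are set means. Mt1 and Mt2 lie higher and Slc39a10 and Fth1 lower in every mutant library than in any wild-type library, and the other 6 genes overlap between genotypes.

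The metallothionein pair together made up 0.227% ± 0.00045 of all TPM in the wild-type sets and 0.478% ± 0.0870 in the mutant sets. The summed level was 2220 to 2325 TPM in the wild-type libraries and 4141 to 5875 TPM in the mutant libraries. The ratio of Mt2 to Mt1 was 2.08, 2.07, 2.19 and 2.32 in the wild-type libraries and 1.87 to 2.06 in the mutant libraries. Mt1 thus gained slightly more than Mt2, with ratios of 2.17 ± 0.126 and 1.96 ± 0.0305, and the groups were separated only by 2.06 against 2.07. Neither gene shared a 50-base stretch of its transcripts with another gene, so reads of that length could be told apart between them.

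The difference between the mutant sets is a separate comparison from that between the genotypes. The genes were chosen with earlier results of these data known, so its p-values may not be free of that choice. Mt1 differed between the mutant sets beyond the spread between libraries of a set, by -0.41 in set 2 and -0.50 in set 3 against set 1 on the log2 scale (SE 0.05, limma F test, adjusted p = 0.0014). Mt2 differed by -0.39 and -0.45 (SE 0.03, adjusted p = 1.6e-04). Between the wild-type sets the differences (set 2 minus set 1) were -0.08 ± 0.05 for Mt1 (adjusted p = 0.351) and 0.03 ± 0.03 for Mt2 (adjusted p = 0.52). Without mutant set 1 the log2 fold change between genotypes was 1.003 for Mt1 and 0.874 for Mt2.

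**Figure D2:**
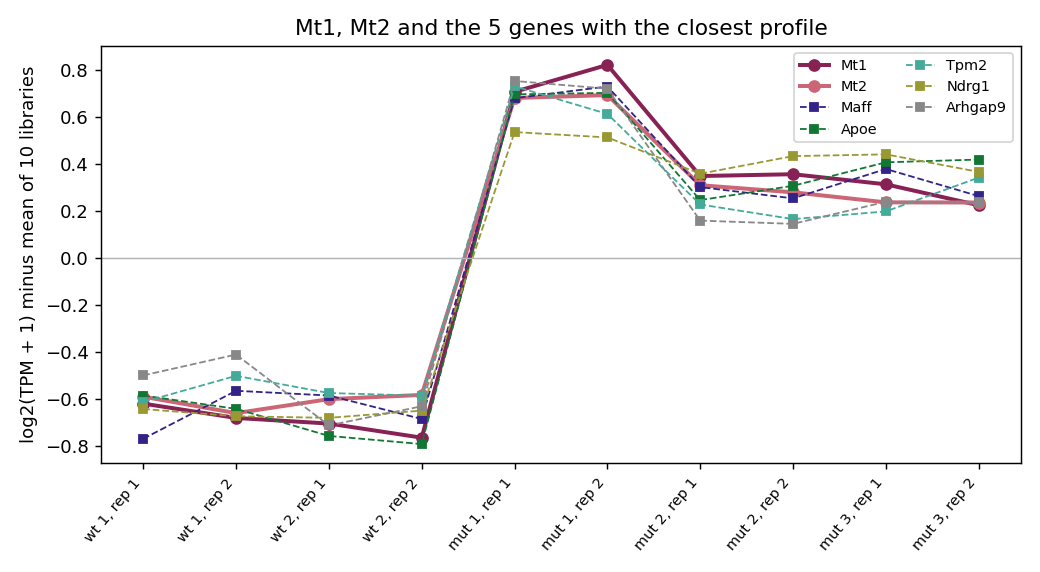
Centred log2(TPM + 1) level of Mt1 and Mt2 in the 10 libraries, with the 5 other genes whose profile lay closest. The libraries of mutant set 1 are the highest for both metallothioneins, and lines join libraries only to guide the eye.

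By the root mean square difference between centred log2(TPM + 1) profiles over the 10 libraries, the genes nearest to the mean profile of Mt1 and Mt2 (whose own SD was 0.556) were Maff (0.0777), Apoe (0.0945), Tpm2 (0.108), Ndrg1 (0.122) and Arhgap9 (0.122). Maff, a small Maf transcription factor, stood at 7.87 ± 0.127 TPM in wild-type and 18.0 ± 3.21 TPM in mutant sets. Apoe, the lipid-carrying apolipoprotein E, stood at 858 ± 67.8 and 1925 ± 294 TPM. These genes were picked for likeness over the same libraries, and the share of the likeness that comes from the genotype difference itself was not separated.

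Protein-coding genes within 100000 bases of the metallothionein cluster, from Mt4 to Mt1, were listed by position. Of these, Mt3, the brain-enriched metallothionein, stood at 3.52 ± 0.626 TPM in wild-type and 3.63 ± 0.715 TPM in mutant sets (log2 fold change 0.03 ± 0.17), and its sign changed under other settings (-0.12 to 0.19 over 24 of them). Mt4, the metallothionein of squamous epithelia, had a mean under 1 TPM and was not tested (0.718 ± 0.357 and 0.187 ± 0.164 TPM). Ogfod1 (-0.08 ± 0.12) and Bbs2 (0.05 ± 0.11) did not pass the test. Nup93, a nuclear pore protein, fell from 105 ± 0.0495 to 81.8 ± 8.21 TPM (-0.36 ± 0.09). Nup93 was the only one of the 4 tested neighbours that passed the test, and its direction was opposite to that of Mt1 and Mt2.

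Mtf1, the zinc-sensing activator of the metallothioneins (ENSMUSG00000028890.13, chromosome 4, 124802104 to 124849800, plus strand), stood at 13.6, 18.8, 14.7 and 15.2 TPM in the wild-type libraries. In the mutant sets it stood at 16.5 and 12.1, 16.5 and 15.2, and 18.1 and 17.6 TPM. The groups overlapped. The log2 fold change was 0.03 ± 0.12, with a sign that changed over the 25 other settings (-0.07 to 0.14), and the mutant sets did not pass the test for a difference (adjusted p = 0.349).

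Slc30a1, the zinc exporter of the plasma membrane (ENSMUSG00000037434.7, chromosome 1, 191906767 to 191913247, plus strand), stood at 6.80, 7.72, 7.43 and 7.94 TPM in the wild-type libraries. The mutant libraries lay between 6.60 and 7.22 TPM and overlapped with them. The mean level was 7.47 ± 0.30 and 6.83 ± 0.0757 TPM, a log2 fold change of -0.11 ± 0.10. Thus, of the genes whose windows are shown above, both metallothioneins were higher in every mutant library and Slc30a1 was not.

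Slc39a10, a zinc importer of the plasma membrane (ENSMUSG00000025986.6, chromosome 1, 46807544 to 46892852, minus strand), stood at 27.9, 26.9, 25.3 and 25.7 TPM in the wild-type libraries. In the mutant it stood at 17.6 and 15.1 TPM in set 1, 20.0 and 19.4 TPM in set 2, and 16.2 and 16.1 TPM in set 3. All 6 lay below the 4 wild-type libraries, and set 2 was the highest of the mutant sets. The mean level went from 26.4 ± 1.37 to 17.4 ± 2.01 TPM, a ratio of 0.659 and a log2 fold change of -0.58 ± 0.11. The mutant sets differed (set 2 minus set 1 0.26, set 3 minus set 1 -0.01, SE 0.07, limma F test, adjusted p = 0.0481). The ratio of Slc39a10 to Slc30a1, importer to exporter, was 3.55 ± 0.337 in wild-type and 2.55 ± 0.316 in mutant sets, and its libraries did not overlap.

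Slc11a2, the divalent metal transporter DMT1 (ENSMUSG00000023030.16, chromosome 15, 100387898 to 100425072, minus strand), stood at 19.2, 20.6, 17.1 and 18.9 TPM in the wild-type libraries. The mutant libraries stood at 14.1 and 11.8 TPM in set 1, 16.7 and 18.5 TPM in set 2, and 16.3 and 17.1 TPM in set 3. Set 1 lay below every other library, while sets 2 and 3 reached into the wild-type range. The log2 fold change was -0.26 ± 0.14 over all sets and -0.13 without mutant set 1. The mutant sets differed (0.42 in set 2 and 0.35 in set 3 against set 1, SE 0.10, limma F test, adjusted p = 0.0376).

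Tfrc, the transferrin receptor (ENSMUSG00000022797.16, chromosome 16, 32608920 to 32632794, plus strand), was the most abundant of the transport genes. It stood at 418 and 395 TPM in wild-type set 1 and 342 and 350 TPM in wild-type set 2. Mutant levels were 304 and 300 TPM in set 1, 308 and 319 TPM in set 2, and 340 and 345 TPM in set 3. Mutant set 3 reached the level of wild-type set 2, so the groups overlapped. The log2 fold change was -0.23 ± 0.09, but -0.12 without wild-type set 1 and -0.35 without wild-type set 2. Tfrc was the only member that differed between the wild-type sets (-0.23 ± 0.04 in set 2 against set 1, limma, adjusted p = 0.0203), and it also differed between the mutant sets (0.05 and 0.18 in sets 2 and 3 against set 1, SE 0.04, adjusted p = 0.0246). The difference between the 2 wild-type sets was thus as large as that between the genotypes.

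Fth1, the ferritin heavy chain with the ferroxidase centre (ENSMUSG00000024661.7, chromosome 19, 9980598 to 9985098, plus strand), stood at 907, 881, 933 and 896 TPM in the wild-type libraries. The mutant libraries stood at 781 and 818, 826 and 791, and 803 and 825 TPM. All 6 lay below the wild-type libraries, by a small margin, and the sets agreed closely within each genotype. The mean level went from 905 ± 14.8 to 807 ± 7.28 TPM, a ratio of 0.892 and a log2 fold change of -0.16 ± 0.06. The test of the mutant sets gave an adjusted p of 0.84.

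Ftl1, the ferritin light chain (ENSMUSG00000050708.16, chromosome 7, 45457944 to 45459884, minus strand), stood at 344, 366, 385 and 396 TPM in the wild-type libraries. The mutant libraries stood at 431 and 441, 405 and 356, and 424 and 404 TPM and overlapped with them. The mean level was 373 ± 25.2 and 410 ± 28.2 TPM (log2 fold change 0.14 ± 0.08). The difference was 0.26 after quantile normalization, 0.0676 without wild-type set 1, 0.0906 without mutant set 1 and 0.21 without wild-type set 2. This level is uncertain, since 50.9% of the 50-base stretches of the Ftl1 transcripts occur in 15 other genes. The copy Ftl1-ps1 was listed at 3156 ± 46.7 TPM in wild-type and 3456 ± 289 TPM in mutant sets (0.13 ± 0.08, adjusted p = 0.3), and the processed pseudogene Ftl2-ps at 3192 ± 69.1 and 3685 ± 354 TPM (0.20 ± 0.09, adjusted p = 0.149). The Ftl1 row held 5.55% ± 0.26 of the sum of these 3 rows in wild-type and 5.44% ± 0.139 in mutant sets, so most of the light-chain signal was listed under its copies. The authors' estimation could split reads between them, and which copy the reads came from cannot be told.

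The ratio of heavy to light chain was lower in the mutant on either count. Fth1 over Ftl1 was 2.26 to 2.64 in the wild-type and 1.81 to 2.22 in the mutant libraries. Fth1 over the sum of the 3 light-chain rows was 0.134 to 0.136 in the wild-type and 0.0987 to 0.121 in the mutant libraries. Neither ratio overlapped between genotypes. The other rows of the ferritin family were low, the highest being Fthl17c with 0.930 to 9.82 TPM, a testis-type heavy-chain relative whose mean was 6.88 ± 2.76 TPM in wild-type and 1.35 ± 0.443 TPM in mutant sets.

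**Figure D3:**
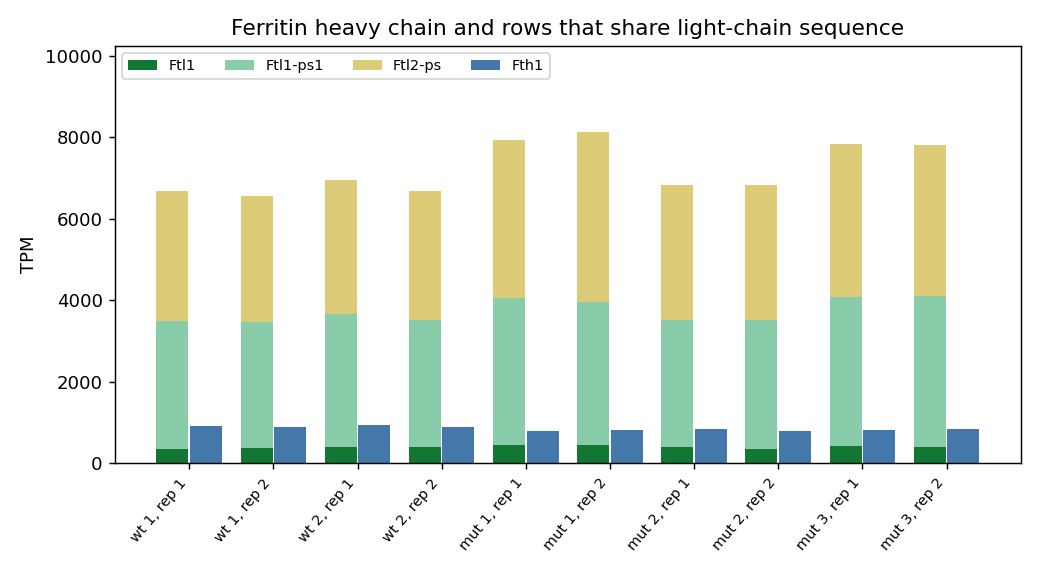
Level (TPM) in each of the 10 libraries of the light-chain rows Ftl1, Ftl1-ps1 and Ftl2-ps, stacked in the left bar, and of Fth1 in the right bar. The Ftl1 row is a thin slice (344 to 441 TPM) at the foot of each stack, and the Fth1 bars lie between 781 and 933 TPM.

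By their centred profiles over the 10 libraries, the genes nearest to the mean of Fth1 and Ftl1 (SD 0.0513) were Rpl11 (root mean square difference 0.0321), Sra1 (0.0356), Rplp2 (0.0368), Uqcc3 (0.038) and Tpt1 (0.0411). Fth1 was lower and Ftl1 higher in the mutant by their mean levels (-0.16 and 0.14), and these changes offset each other in the mean profile. That mean hardly varied, so likeness to it means a flat profile and says nothing of either gene alone.

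Ireb2, the iron regulatory protein IRP2 (ENSMUSG00000032293.8, chromosome 9, 54863789 to 54912530, plus strand), stood at 80.1 and 78.9 TPM in wild-type set 1 and 65.5 and 69.1 TPM in wild-type set 2. The mutant libraries stood at 63.0 and 57.9 TPM in set 1, 68.1 and 69.0 TPM in set 2, and 68.5 and 69.0 TPM in set 3. The mutant libraries overlapped with wild-type set 2 and lay below wild-type set 1. The log2 fold change of -0.15 ± 0.10 was -0.03 without wild-type set 1 and -0.27 without wild-type set 2. The mutant sets differed (0.18 in both sets 2 and 3 against set 1, SE 0.05, limma F test, adjusted p = 0.0492), and the wild-type sets missed the threshold (-0.24 ± 0.05, adjusted p = 0.0514). The ratio of Ireb2 to Aco1, the other iron regulatory protein, was 1.96 ± 0.237 and 1.92 ± 0.0546.

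**Figure D4:**
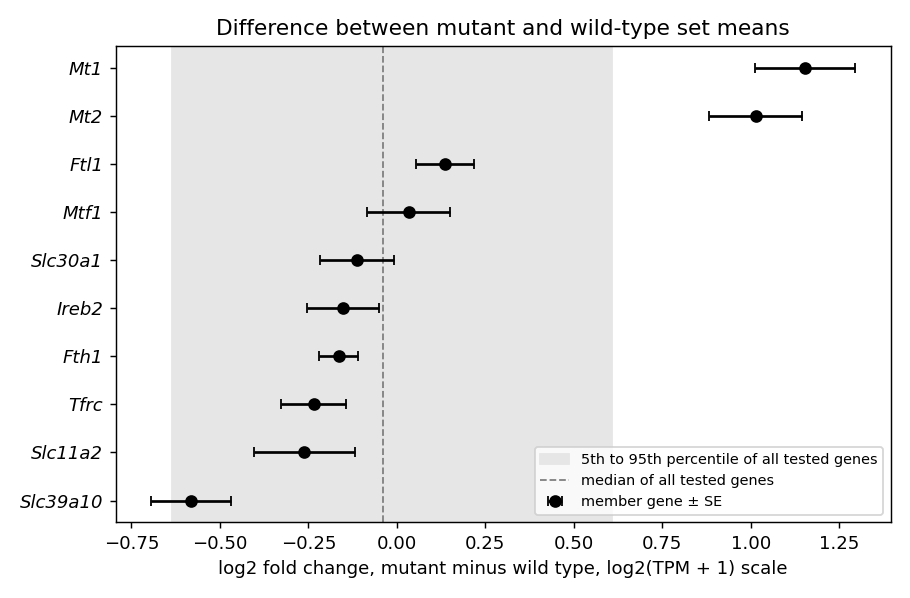
Log2 fold change (mutant minus wild type, ± SE) of the 10 genes over set means, with points for the difference, bars for the SE, a grey band from the 5th to the 95th percentile of all tested genes (-0.63 to 0.61) and a dashed line at their median. Mt1 and Mt2 lie at 1.15 and 1.01, Slc39a10 at -0.58, and the other 7 genes between -0.26 and 0.14.

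All 10 genes had a mean TPM above the filter of 1. In the fit over set means 2 of the 10 were called higher (Mt1 and Mt2) and 1 lower (Slc39a10), where 6.97% of all tested genes were called higher and 10.5% lower, and nothing is read from this count because the members were listed with that contrast known. The calls of Mt1 and Mt2 were lost without either wild-type set, at log2 fold changes of 0.998 to 1.196 over both genes, and that of Slc39a10 without either wild-type set or mutant set 1 or 3 (-0.63 to -0.53). The call of Slc39a10 was also lost with no filter on low values (-0.58) and with the set number as a replicate block (-0.53). Groups did not overlap for 4 members, above in the mutant for Mt1 and Mt2 and below for Slc39a10 and Fth1, against 31.8% of all genes (12.4% above, 19.4% below). The median log2 fold change was -0.13 over the members and -0.04 over all tested genes.

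Between the mutant sets 6 of the 10 members differed (Mt1, Mt2, Slc39a10, Slc11a2, Tfrc and Ireb2), where 19.6% of all tested genes and 23.9% of those with a mean of at least 5 TPM did. In Mt1 and Mt2 set 1 was the highest, and in Slc11a2, Tfrc and Ireb2 it was the lowest. Leaving out a library changed this count to as few as 2, Mt1 and Mt2 (without either library of mutant set 3), and it was 3 without any 1 wild-type library, without replicate 2 of mutant set 1 and without either library of mutant set 2. Between the wild-type sets 1 member, Tfrc, differed, where 2.75% of all tested genes and 3.36% of those with a mean of at least 5 TPM did. That count was 0 without any 1 wild-type library, with 2 or 3 members at an unadjusted p under 0.05, and 2 (Tfrc and Ireb2) without either library of mutant set 1.

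The other genes of metal handling were taken from 9 lists made by function, and 83 of their 103 genes could be tested. Of these 7 rose and 9 fell in the mutant, with a median log2 fold change of -0.02. Among all 12797 tested genes 892 rose (6.97%) and 1350 fell (10.5%), and these shares stand beside each list below as well. The lists were made with earlier results of these data known, so nothing is read from the counts. The balance over all genes depended on the scaling, where median-of-ratios rescaling gave 1096 higher against 1064 lower. Of the 16 calls, leaving out wild-type set 1 lost 12 and leaving out wild-type set 2 lost 14. Dropping mutant set 1 lost 8 of them and dropping mutant set 3 lost 6, and only Slc11a1 kept its call in all 25 other settings.

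Iron uptake, reduction and release had the most calls of these lists, 3 higher and 4 lower of 9 tested (18 listed). Over all tested genes 6.97% were called higher and 10.5% lower. Slc11a1, the divalent metal transporter of phagosomes and a relative of Slc11a2, rose from 63.1 ± 14.7 to 198 ± 7.37 TPM (1.65 ± 0.13, limma, adjusted p = 0.0027). Its libraries ranged from 52.0 to 74.0 TPM in the wild type and from 187 to 216 TPM in the mutant, and the wild-type sets differed (-0.47 in set 2 against set 1, adjusted p = 0.00875). Trf, transferrin, the carrier of iron in plasma, rose from 4.29 ± 0.842 to 10.9 ± 1.36 TPM (1.17 ± 0.15, adjusted p = 0.00696). Mcoln1, a lysosomal cation channel that lets iron out, rose from 33.0 ± 3.84 to 50.2 ± 1.94 TPM (0.59 ± 0.09, adjusted p = 0.0125). The ferrireductases of the STEAP family fell: Steap2 from 3.52 ± 0.665 to 1.16 ± 0.0218 TPM (-1.05 ± 0.16, adjusted p = 0.0108), Steap1, a family member without a full reductase domain, from 8.79 ± 3.55 to 3.78 ± 0.139 TPM (-0.99 ± 0.21, adjusted p = 0.0262), and Steap3, the endosomal partner of Tfrc, from 4.59 ± 0.18 to 2.52 ± 0.211 TPM (-0.67 ± 0.13, adjusted p = 0.0215). The wild-type sets themselves differed in Steap1 (6.42 and 6.15 TPM in set 1, 12.7 and 9.88 TPM in set 2, adjusted p = 0.0402), and without wild-type set 2 its change was -0.61 and was not called. Ncoa4, the receptor that delivers ferritin to lysosomes, fell from 68.8 ± 4.48 to 51.6 ± 2.05 TPM (-0.41 ± 0.08, adjusted p = 0.0203). Steap3, Mcoln1 and Ncoa4 were named after their values were seen. The iron exporter Slc40a1 had a mean of 0.188 TPM and was not tested.

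In zinc transport 1 of 6 tested exporters and 1 of 9 tested importers rose and 0 fell, with 3 genes of each list at an unadjusted limma p under 0.05. Slc30a9, a mitochondrial zinc transporter, rose from 18.0 ± 1.48 to 27.1 ± 0.803 TPM (0.56 ± 0.09, adjusted p = 0.0125). Slc39a4, the intestinal zinc importer, rose from 16.8 ± 0.477 to 25.1 ± 3.75 TPM (0.55 ± 0.13, adjusted p = 0.0332). The mutant sets differed in Slc39a4, whose mutant libraries ranged from 20.5 to 29.4 TPM (limma F test, adjusted p = 0.0117). The importer Slc39a4 was thus higher and the importer Slc39a10 lower.

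Among 19 tested genes of mitochondrial iron and iron-sulphur assembly 2 rose and 1 fell. The co-chaperone Hscb rose from 49.1 ± 0.102 to 84.5 ± 19.2 TPM (0.74 ± 0.18, limma, adjusted p = 0.0359) and Ciao1, of the cytosolic assembly complex, from 28.5 ± 2.28 to 41.8 ± 2.19 TPM (0.54 ± 0.09, adjusted p = 0.0142). The mutant sets differed in Hscb (limma F test, adjusted p = 2.5e-04). It stood at 100.6 and 96.1 TPM in set 1, 62.3 and 63.0 TPM in set 2, and 91.6 and 93.7 TPM in set 3. Of 12 tested copper genes 2 fell, Sod1, the copper and zinc superoxide dismutase (1353 ± 42.3 to 1068 ± 14.4 TPM, -0.34 ± 0.06, adjusted p = 0.0139), and its copper chaperone Ccs (56.3 ± 4.81 to 44.4 ± 0.336 TPM, -0.34 ± 0.08, adjusted p = 0.0343). Of 6 tested iron sensing and chaperone genes Hif1a, the oxygen-regulated transcription factor, fell (46.4 ± 1.87 to 37.1 ± 0.394 TPM, -0.31 ± 0.07, adjusted p = 0.0332). Of 7 tested glucocorticoid-responsive genes, listed because glucocorticoids induce metallothioneins, Sgk1, a kinase, fell (247 ± 2.85 to 173 ± 8.70 TPM, -0.51 ± 0.07, adjusted p = 0.0082). The other 6, named after their values were seen, were not called, and the list's median log2 fold change was 0.10. It was positive for Klf9 (0.20), Dusp1 (0.17), Per1 (0.16) and Tsc22d3 (0.10) and negative for Fkbp5 (-0.14) and Nr3c1 (-0.22). Haem synthesis and breakdown had 0 calls in 14 tested genes and 1 at an unadjusted limma p under 0.05. Its 2 smallest p belonged to Ppox, which makes protoporphyrin (0.62 ± 0.20, adjusted p = 0.0764), and Slc48a1, a haem transporter (0.25 ± 0.11, adjusted p = 0.16).

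**Figure D5:**
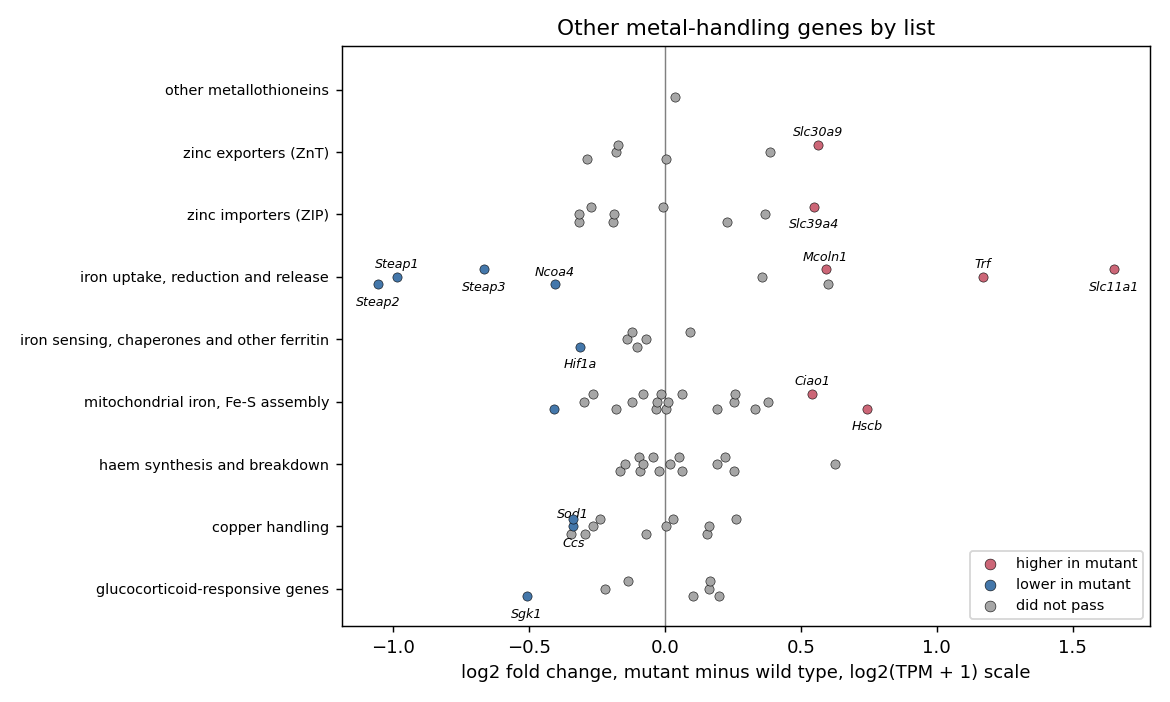
Log2 fold change (mutant minus wild type) of the 83 tested genes in the 9 lists of metal handling, 1 point per gene, with genes called higher in red, genes called lower in blue and the others in grey. The spread is widest in iron uptake, reduction and release, from Slc11a1 at 1.65 to Steap2 at -1.05.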

How the data were processed

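The deposited table gives the authors' TPM for each gene in 4 wild-type and 6 ANKRD11 Y347A poly(A) RNA libraries. The submitters' processing notes name Trim Galore, STAR, RSEM and DESeq2 and the build mm10. For these tools, the version, settings, strand mode and annotation were not given in the sources used here. Libraries summed to 999999.43 to 1000000.77 TPM over 55401 genes, so depth is unknown, and the values of a library depend on each other. Every column name matched 1 sample.

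The 12797 genes whose TPM averaged 1 or more were kept, log2(TPM + 1) was taken, and the 2 libraries of each set were averaged. The 2 wild-type and 3 mutant set means were compared in limma 3.58.1 (R 4.3.3, two-sided, eBayes with trend, residual degrees of freedom 3, prior 4.01), with Benjamini-Hochberg adjustment over all tested genes and a threshold of 0.05. Differences between sets came from a limma fit of the 10 libraries with 5 set means (5 residual degrees of freedom), by an F test over the mutant sets and a contrast of the wild-type sets. The fit was also run on simulated data with noise drawn independently for each gene. That run does not cover effects shared between genes or sets, so it does not bear on the calls made here. The members and lists were chosen with earlier results of these data known. Named beyond the 10 members were, per list, the called genes with the greatest change (up to 4) or, with no call, the 2 of smallest p, and the 5 genes nearest each pair's profile (predicted genes passed over). Other genes are said to be named after their values were seen, or were listed by position or as copies; 1 gene that this rule names is not reported here. Other settings tried were 0.1 as pseudocount, a filter at 5 TPM or none, median-of-ratios and quantile scaling, no trend, all libraries with no block or a random block for the set, replicate blocks, and leaving out each set and library. Sequences were read from a RefSeq promoter table (GRCm38.p6) and GENCODE M21 on mm10 with Python 3.11.15. Figures used matplotlib 3.10.9.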

Additional observations from a re-analysis of the deposited data

Results flagged for a closer look

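The check for a library far from the others of its group covered 72 groups. A group was the 4 wild-type or 6 mutant libraries of a gene, or of a ratio or sum of genes. In 1 group a library was flagged, where chance alone gives about 1 in 20 groups, so this is not more than chance gives. Ciao1 was at 34.8 TPM in replicate 1 of mutant set 1, and the nearest other mutant library was at 42.1 TPM, a gap of 0.802 of the group's range.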

How the results depend on the processing

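The log2 fold change kept its direction under all 25 alternatives for each member except Mtf1 (-0.07 to 0.14). It ran from 1.003 to 1.251 for Mt1, 0.87 to 1.10 for Mt2 and -0.67 to -0.53 for Slc39a10. The 2242 genes called became 809 with no filter on low values, 5269 with the 10 libraries and no block, 3398 with the set as a random block, and 97 to 2521 on leaving out 1 set or library. The 7 pathway genes called higher became 19 with the 10 libraries and no block and 2 to 11 on leaving out 1 set or library. The 9 called lower became 3 with no filter, 22 with the 10 libraries and no block, and 0 to 10 on leaving out 1 set or library (0 without wild-type set 2, where 11 had an unadjusted limma p under 0.05). The 6 members that differed between mutant sets became 2 with no filter and 2 with no variance trend, and 2 to 6 on leaving out 1 library; Mt1 and Mt2 were in every count. The 1 that differed between wild-type sets became 2 at a mean of at least 5 TPM, 2 with median-of-ratios and 2 with quantile scaling, 0 with no trend (2 at an unadjusted limma p under 0.05), and 0 to 2 on leaving out 1 library.

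Deviations of same-numbered libraries correlated at 0.049, -0.0656, -0.0555 and -0.0416, and those of differently numbered libraries at -0.167 to 0.177. The same-numbered pairs did not stand out, which gives no sign of pairing but cannot exclude it. With the set number as a replicate block 571 genes were called, with 3 pathway genes higher and 1 lower; with set and replicate number as a block 3789 were called, with 14 pathway genes lower. Mt3, which was not called, changed sign under both blocks (-0.0738 under each replicate block) and ranged from -0.12 to 0.19 on leaving out 1 set or library. The cause of these changes was not tested. With 2 wild-type sets, leaving 1 out leaves a lone set that is assumed to vary like the mutant sets. Depth is unknown for TPM, so counting error, which weighs most on the genes of a few TPM, could not be given.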
